A study of Mus musculus with 11 samples.

Results

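The GATA factors are transcription factors with zinc fingers that bind the DNA word GATA and the bases beside it. The 5 genes Gata1, Gata2, Gata3, Gata4 and Gata6 were chosen by symbol among the 37820 Ensembl gene identifiers of a table of RNA levels from mouse haematopoietic ontogeny, and their levels in all 11 libraries were examined. GATA2 is known as a factor of stem and progenitor cells and of the endothelium that forms them, and GATA1 as the factor of the erythroid, megakaryocyte, mast cell and eosinophil lineages. In developing blood cells GATA1 is known to replace GATA2 at shared sites in chromatin, including sites in the Gata2 gene itself, an exchange called the GATA switch. GATA3 directs T cell, sympathetic neuron and kidney duct development, and GATA4 and GATA6 act in heart, gut, gonad, vessel wall and endothelium.

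A pair of populations came from the major arteries of embryos at embryonic day (E) 10.5. They were the haemogenic endothelium (HE), from which blood emerges, and other endothelial cells (Endo). The paper reports that Endo formed blood cells in culture far more rarely than HE. Both were CD31+ CD45- CD41- cells of embryos that carry a Runx1:GFP reporter allele (Runx1tm4Dow, GFP read from the Runx1 locus), with GFP present in HE and absent in Endo and with c-Kit absent in Endo and low or absent in HE. Pre-HSC were the CD31+ CD144+ ESAM+ c-Kit+ cells of Ly6a:GFP transgenic embryos that were positive for GFP, which the labels place at E10.5 and the methods at a later day. Their tissues were pooled, and their mothers had been superovulated. Fetal liver haematopoietic stem cells (FL HSC) were E14.5 Lin- Sca1+ c-Kit+ CD150+ CD48- cells, and bone marrow stem cells (BM HSC) were Lin- Sca1+ c-Kit+ CD150+ CD48- CD135- cells of mice aged 6 to 8 weeks. For BM HSC this is the gate of the methods, and the supplement's description of the RNA-seq cells gives another, which names neither CD48 nor CD135. No reporter is stated for either HSC population. Each population had 2 libraries, except pre-HSC with 3. The labels give the strain B6129SF1 throughout, whereas the methods name other crosses for some populations. Endo and HE share their reporter allele and, in the methods, their cross. In all other comparisons, reporter allele or strain cannot be told apart from population. The study calls its replicates biological; which animals went into each library is not given in the labels, and the p-values measure the spread between these libraries.

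The values are FPKM (fragments scaled to exon length in kilobases and to library size), which allow comparison between genes because they are per length. Sums over all genes were between 569851 and 789161 FPKM per library, and 11857 to 13080 genes reached 1 FPKM; read depth is not known from such values. Among the sort markers, Runx1 was at 0.805 and 0.956 FPKM in Endo and at 3.74 and 3.13 FPKM in HE, Ptprc (CD45) stayed under 0.1 FPKM in both, and Slamf1 (CD150) was at 13 to 31.8 FPKM in the HSC libraries. Cd48 was at 35.9 and 16.6 FPKM in FL HSC and at 5.01 and 7.72 FPKM in BM HSC. Its product was excluded by the FL HSC gate and by the BM HSC gate of the methods. Itga2b (CD41) was at 3.88 to 6.80 FPKM in the CD41- Endo and HE libraries. The embryonic globin gene Hbb-bh1 was at 2523 to 3625 FPKM in the Endo and HE libraries, 131 to 192 FPKM in pre-HSC and 1.09 or 0 FPKM in FL HSC. Which cells this globin RNA came from was not tested. In sorted bulk populations such as these, fewer cells of a type and less RNA per cell cannot be told apart.

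The sequence elements through which GATA factors are known to read their own genes are shown first, since the Gata1 and Gata2 genes are the members with the largest levels in blood. An intronic element of Gata2 that joins an E-box with a GATA motif is known from mouse genetics to be needed for Gata2 expression when stem cells emerge. In the mm9 genome the word CATCTG followed after 8 bases by AGATAA occurred 1 time on either strand within the 13140 bases of Gata2, in the fourth intron of both annotated transcripts and 9294 bases after the start of the longer one. Of 11128 windows of that length laid along chromosome 6, 0.377% held the same arrangement. The words and the gap were set in advance for this known element, so its match in Gata2 is not a test. Gata1 is known to carry a palindromic pair of GATA motifs upstream of the first exon used in blood cells. In the 1000 bases before the start of transcript Gata1-001 there was 1 pair of GATA hexamers on opposite strands within 15 bases, at positions -546 and -537 from that start, and 1.96% of 45967 upstream windows of protein-coding transcripts held such a pair. The stretches around both, with 50 bases on each side, are given 5′ to 3′ on the strand of the gene, with the E-box and GATA words in capitals; the Gata2 stretch is chr6:88153129-88153248 on the plus strand and the Gata1 stretch chrX:7545518-7545632 on the minus strand, both in mm9.
Gata2 intron element: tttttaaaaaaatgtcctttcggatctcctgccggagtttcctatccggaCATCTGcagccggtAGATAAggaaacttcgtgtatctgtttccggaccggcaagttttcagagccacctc
Gata1 upstream element: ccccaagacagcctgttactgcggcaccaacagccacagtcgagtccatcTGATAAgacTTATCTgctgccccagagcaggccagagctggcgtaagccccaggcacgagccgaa

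Closer to the starts, the RefSeq promoter windows (GRCm38.p6, 250 bases before to 50 bases after the start) were searched on both strands for the hexamer AGATAA, the hexamer AGATAG, the hexamer TGATAA, the hexamer TGATAG and for the word CACCC, the core of the sites that KLF1 and SP1 bind. Windows were found for 3 of the 5 genes, with 2 for Gata2. The hexamers were absent from the Gata1 window and from both Gata2 windows, while 29.8% of 32851 windows of 300 bases held at least 1. The Gata3 window held 1 of them, TGATAG at position 36 after the start. The Gata1 window held 2 CACCC words, at -74 and -52, an amount reached by 25.7% of all windows, the window of the longer Gata2 transcript held none, and that of the other Gata2 transcript held 1, on the opposite strand. The Gata3 window held 3, all on the opposite strand, an amount reached by 9.35% of all windows. The windows of Gata1 and of the longer Gata2 transcript are shown, with CACCC in capitals, because Gata1 and Gata2 are the members that rose together between pre-HSC and FL HSC; their base composition differed, with 57.3% G and C in Gata1 and 69.3% in Gata2 against a median of 52.7%. The Gata1 window is chrX:7967861-7968160 on the minus strand and the Gata2 window chr6:88193641-88193940 on the plus strand.
Gata1 promoter: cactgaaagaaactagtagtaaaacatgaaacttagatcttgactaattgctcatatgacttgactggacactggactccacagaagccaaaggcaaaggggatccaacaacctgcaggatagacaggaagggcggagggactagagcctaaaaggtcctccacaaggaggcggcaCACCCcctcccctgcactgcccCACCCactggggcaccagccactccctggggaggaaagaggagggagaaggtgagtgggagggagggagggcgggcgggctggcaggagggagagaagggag
Gata2 promoter: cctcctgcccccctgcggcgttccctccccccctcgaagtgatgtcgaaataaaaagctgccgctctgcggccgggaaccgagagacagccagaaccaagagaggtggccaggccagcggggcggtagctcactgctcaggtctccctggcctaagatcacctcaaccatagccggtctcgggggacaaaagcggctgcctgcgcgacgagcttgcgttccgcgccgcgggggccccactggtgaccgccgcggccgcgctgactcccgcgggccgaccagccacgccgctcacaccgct

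Gata2 was the highest GATA factor in every library and was highest in BM HSC, at 174 ± 8.95 FPKM (SD, n = 2). Gata1 was lowest in pre-HSC, at 0.906 ± 0.128 FPKM (n = 3), and highest in FL HSC, at 53.7 ± 15.6 FPKM (n = 2). Gata6 was above 3 FPKM in every Endo, HE and pre-HSC library and under 0.2 FPKM in every stem cell library. Gata4 was lower in FL HSC than in pre-HSC and listed at 0 in BM HSC, and Gata3 was low throughout with no change that passed the test. A difference is called where the adjusted p was under 0.01 in the limma F test of all populations and under 0.05 in the limma test of the pair, and the change in log2(FPKM + 1) was at least 2-fold, over the 14708 genes with at least 1 FPKM in at least 2 libraries. All 5 members passed that filter on low values.

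**Figure D1:**
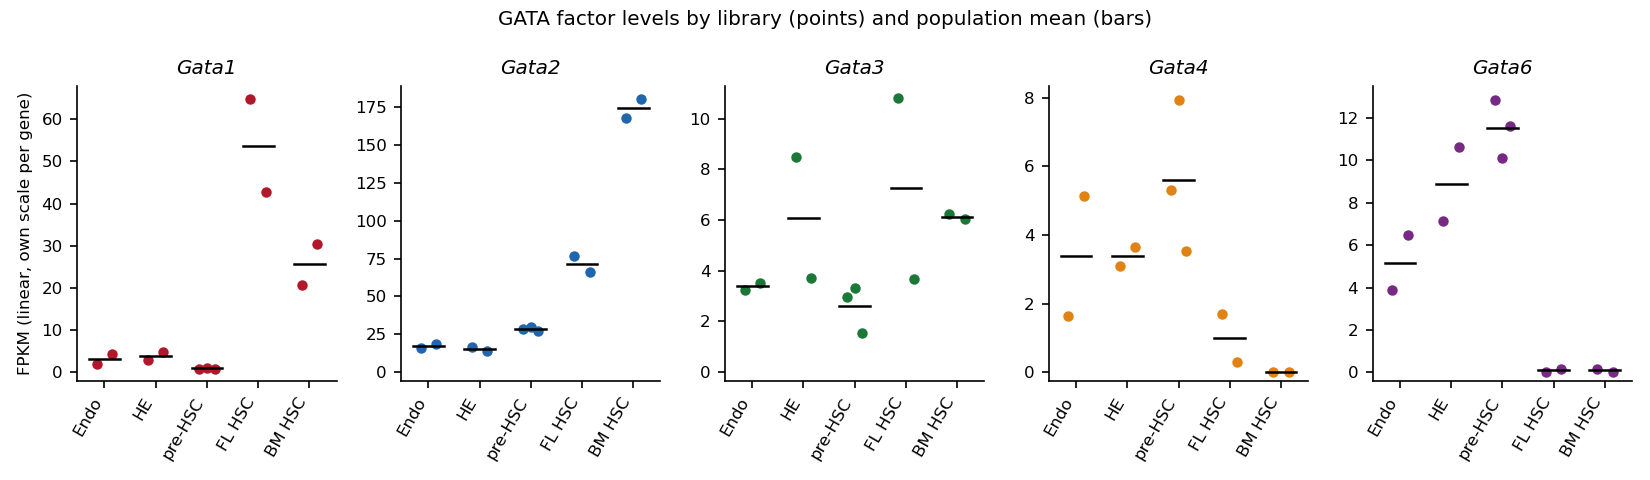
FPKM of each GATA factor (vertical axis, linear, with its own scale for each gene) in the 11 libraries (points), with the mean of each population as a bar. Gata2 climbs to 168 and 181 FPKM in BM HSC, Gata1 peaks at 64.7 and 42.6 FPKM in FL HSC, Gata6 is under 0.2 FPKM in FL HSC and BM HSC, and Gata4 is at 1.71 and 0.307 FPKM in FL HSC and at 0 in BM HSC.

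Gata2 lies on chromosome 6 at 88143885 to 88157024 (mm9, plus strand). Its level was 15.7 and 18.4 FPKM in Endo, 16.8 and 14.1 FPKM in HE, 28.3, 29.9 and 27.2 FPKM in pre-HSC, 76.4 and 66.5 FPKM in FL HSC and 168 and 181 FPKM in BM HSC. The libraries of Endo and HE overlapped, and from HE onwards each population lay above the one before it with no overlap. Gata2 was thus already well above 10 FPKM in Endo, where it exceeded 66.5% of tested genes, and in BM HSC it exceeded 97.1% of them.

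From HE to pre-HSC Gata2 differed by 0.85 on the log2 scale (SE 0.13, adjusted p = 0.00189, limma), which is under 2-fold, so that it was not called although every pre-HSC library was higher. It then rose by 1.29 (SE 0.13, adjusted p = 2.95e-05) from pre-HSC to FL HSC. The rise from FL HSC to BM HSC was of a like size, at 1.28 (SE 0.14, adjusted p = 0.000407). Between Endo and HE the difference was -0.14 with a 95% interval from -0.45 to 0.18.

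Gata1 lies on chromosome X at 7536386 to 7555197 (minus strand). Its level was 1.86 and 4.27 FPKM in Endo, 2.89 and 4.76 FPKM in HE, 0.871, 1.05 and 0.799 FPKM in pre-HSC, 64.7 and 42.6 FPKM in FL HSC and 20.7 and 30.4 FPKM in BM HSC. The 3 pre-HSC libraries were below all others and the FL HSC libraries above all others, with no overlap between any of these and the neighbouring stage. The order of the populations was therefore unlike that of Gata2, since the gene fell before it rose.

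From HE to pre-HSC Gata1 fell by 1.31 on the log2 scale (SE 0.31, adjusted p = 0.0132, limma). Without HE replicate 2 this fall was 1.03 with an adjusted p of 0.0869, and it was no longer called. Over the same step the summed FPKM of 36 erythroid genes went from 9577 and 12416 in HE to between 1051 and 1413 in pre-HSC, and Endo was at 8771 and 9388. Without the 3 embryonic globin genes Hbb-y, Hbb-bh1 and Hba-x, left out after their values were seen, the sum was 942 and 1189 FPKM in HE and 282 to 355 FPKM in pre-HSC. The part of erythroid transcripts in the Gata1 level of Endo and HE was not tested.

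From pre-HSC to FL HSC Gata1 rose by 4.81 (SE 0.31, adjusted p = 1.48e-06), the change ranked 15 from the top of 14708 genes. From FL HSC to BM HSC it differed by -1.04 (SE 0.34, adjusted p = 0.0528), which missed the threshold although the libraries did not overlap. The summed erythroid genes were at 1281 and 1679 FPKM in FL HSC and at 770 and 1017 FPKM in BM HSC, and the FL HSC sums overlapped those of pre-HSC. Without the 3 embryonic globin genes they did not overlap, with 1625 and 1274 FPKM in FL HSC against 282 to 355 FPKM in pre-HSC. The part of erythroid transcripts in the Gata1 level of FL HSC was not tested.

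**Figure D2:**
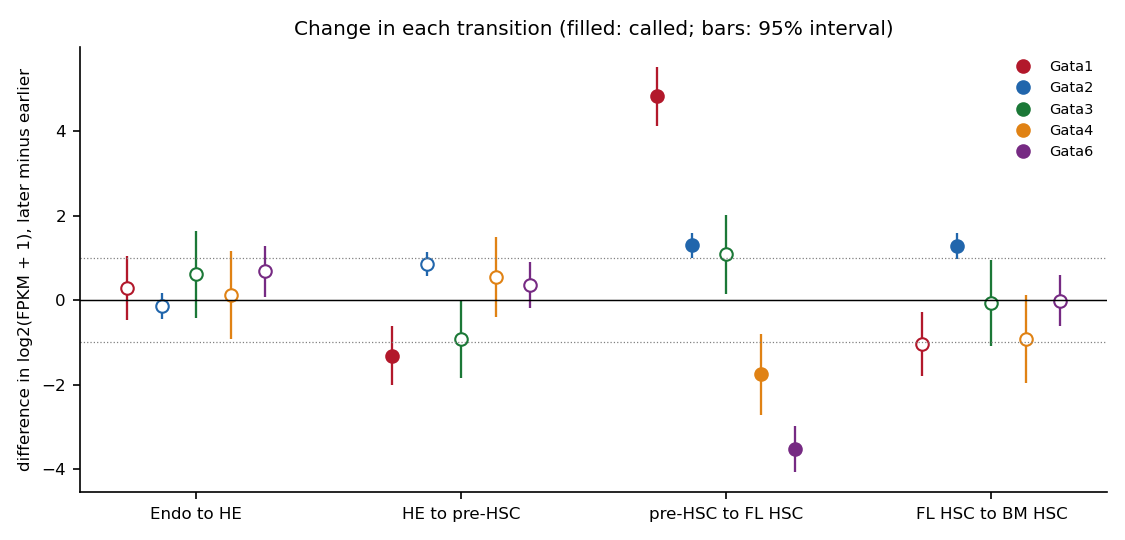
Difference in log2(FPKM + 1) between consecutive populations (vertical axis, later minus earlier) for each GATA factor, with 95% intervals as bars. Filled points were called and open points were not; dotted lines mark 2-fold. Gata1 at 4.81 and Gata6 at -3.52 between pre-HSC and FL HSC are the values farthest from 0.

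The balance of Gata2 to Gata1 changed with stage. Gata2 exceeded Gata1 by 8.45 and 4.30 times in Endo, by 5.82 and 2.96 times in HE, and by 32.5, 28.5 and 34.1 times in pre-HSC. In FL HSC the ratio was 1.18 and 1.56, and in BM HSC it was 8.10 and 5.94. The log2 ratio, with 1 FPKM added to each gene, differed between the populations in an exact permutation test of F over the 11 libraries (p = 0.000289, 120 of 415800 assignments, adjusted p = 0.000289 over the 2 tests of this kind). That test asks whether all populations are equal and does not separate single pairs. Pre-HSC were thus the stage farthest towards Gata2 and FL HSC the stage nearest to equal amounts, and BM HSC overlapped with Endo. The pre-HSC ratios divide by Gata1 levels of only 0.799 to 1.05 FPKM. With 1 FPKM added, as in the test, the log2 ratio of Gata1 to Gata2 was -3.97 to -3.92 in pre-HSC, still the lowest of all stages.

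The summed level of the 5 genes was 26.4 and 37.8 FPKM in Endo, 38.4 and 36.8 FPKM in HE, 44.7 to 52.3 FPKM in pre-HSC, 154 and 113 FPKM in FL HSC and 195 and 217 FPKM in BM HSC. The sum differed between the populations in the same exact permutation test (p = 0.000173, 72 of 415800 assignments; adjusted p = 0.000289). Of the sum, Gata4 and Gata6 together held 20.9% to 38.8% in the Endo, HE and pre-HSC libraries, 1.12% and 0.423% in FL HSC, and 0.088% and 0% in BM HSC. Gata1 held 42.1% and 37.6% in FL HSC and 1.73% to 2% in pre-HSC. Gata2 held 86.1% and 83.2% in BM HSC.

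**Figure D3:**
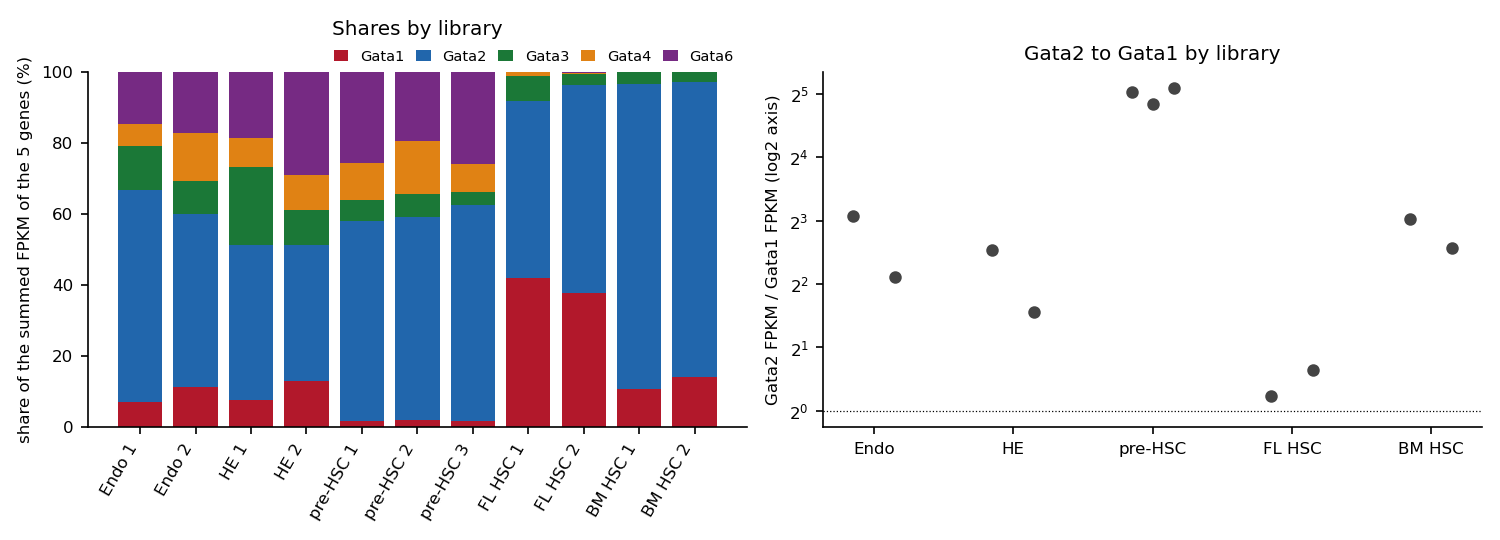
Left, share of the summed FPKM of the 5 genes held by each gene (vertical axis, %) in each library. Right, Gata2 FPKM divided by Gata1 FPKM in each library (log2 axis, dotted line at equal levels), which is 28.5 to 34.1 in pre-HSC and 1.18 and 1.56 in FL HSC.

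Gata3 lies on chromosome 2 at 9778705 to 9811661 (minus strand). Its level was 3.26 and 3.51 FPKM in Endo, 8.48 and 3.70 FPKM in HE, 2.96, 3.32 and 1.55 FPKM in pre-HSC, 10.8 and 3.68 FPKM in FL HSC and 6.24 and 6.04 FPKM in BM HSC. HE replicate 1 and FL HSC replicate 1 stood above their partners, and the spread within these populations was as wide as the differences between stages. Its adjusted p in the limma F test was 0.111, and none of its 10 pairwise differences was called. From pre-HSC to FL HSC it differed by 1.08 (95% interval 0.15 to 2.01, adjusted p = 0.0535), so a change of a few fold is within what these libraries allow. Transcripts of 3 other annotated genes overlap Gata3, each at or under 1.24 FPKM in population mean, and the library kit is not stated to mark strand.

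Gata6, a factor of endoderm, heart and vessel wall, lies on chromosome 18 at 11052508 to 11085633 (plus strand). Its level was 3.88 and 6.48 FPKM in Endo, 7.13 and 10.6 FPKM in HE, 12.9, 10.1 and 11.6 FPKM in pre-HSC, 0.0149 and 0.172 FPKM in FL HSC and 0.172 and 0 FPKM in BM HSC. The embryonic artery libraries were all above 3 FPKM and the stem cell libraries all under 0.2 FPKM. Pre-HSC, which already carry blood markers such as Ptprc at 7.97 to 13.2 FPKM, had the highest mean Gata6 level, and their libraries overlapped those of HE. Pre-HSC also had the highest means of the endothelial sort markers Cdh5 (457 FPKM) and Pecam1 (270 FPKM). The mean of Esam was 175 FPKM in pre-HSC and 219 FPKM in Endo.

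From Endo to pre-HSC Gata6 rose by 1.05 on the log2 scale (SE 0.25, adjusted p = 0.0136, limma), while the single steps from Endo to HE (0.69, adjusted p = 0.496) and from HE to pre-HSC (0.36, adjusted p = 0.298) were not called. From pre-HSC to FL HSC it fell by 3.52 (SE 0.25, adjusted p = 2.75e-06), and on this scale the fall is understated because 1 FPKM was added. The gene 1010001N08Rik overlaps Gata6 on the other strand. It was at 0.352 to 2.44 FPKM in the Endo, HE and pre-HSC libraries and listed at 0 in the FL HSC and BM HSC libraries. Its fall from pre-HSC to FL HSC (-1.29) was called, as that of Gata6 was, and reads of the pair cannot be told apart without strand.

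Gata4, known in heart, gonad and the endothelium of liver sinusoids and heart valves, lies on chromosome 14 at 63817759 to 63890529 (minus strand). Its level was 1.65 and 5.14 FPKM in Endo, 3.11 and 3.64 FPKM in HE, 5.30, 7.95 and 3.53 FPKM in pre-HSC and 1.71 and 0.307 FPKM in FL HSC, and it was listed at 0 in both BM HSC libraries. Endo replicate 1 and FL HSC replicate 1 had nearly the same level, so Endo and FL HSC overlapped, while every HE and pre-HSC library was above both FL HSC libraries. Gata4 fell by 1.75 from pre-HSC to FL HSC (SE 0.42, adjusted p = 0.00683, limma). The call did not hold without FL HSC replicate 2, when the fall was 1.23 with an adjusted p of 0.0673. Without either BM HSC library the fall kept its size with an adjusted p of 0.0105 or 0.0106, but the F test then gave 0.0119 and missed its threshold.

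Counted over the steps, 0 of the 5 members were called between Endo and HE, where 0.129% of all genes tested were. In that step 1 member, Gata6, had an unadjusted p under 0.05 in the limma test. Between HE and pre-HSC 1 of 5 was called, Gata1, against 11.3% of all genes. Between pre-HSC and FL HSC 4 of 5 were called, Gata1 and Gata2 upwards and Gata4 and Gata6 downwards, against 25% of all genes. Between FL HSC and BM HSC 1 of 5 was called, Gata2, against 10.1% of all genes.

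In the order of levels, neighbours were called different at 5 of 20 places. For Gata1 the order was FL HSC, BM HSC, HE, Endo and pre-HSC, with calls between BM HSC and HE (2.47 on the log2 scale, adjusted p = 0.000175, limma, against 36.6% of all genes called) and between Endo and pre-HSC (1.03, adjusted p = 0.0349, against 10.3%). For Gata2 it was BM HSC, FL HSC, pre-HSC, Endo and HE, with calls at the 2 upper places. For Gata6 it was pre-HSC, HE, Endo, FL HSC and BM HSC, with a call between Endo and FL HSC (2.47, adjusted p = 5.13e-05, against 29.8%). No neighbours were called for Gata3, nor for Gata4, whose nearest pair was HE above FL HSC (1.22, adjusted p = 0.0509, against 30.2%).

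Of 31 listed genes for proteins that work with GATA factors, 30 had a row and were tested. Between pre-HSC and FL HSC 6 of them rose and 2 fell, against 25% of all genes called, with a median change of 0.49 against 0.11 over all genes tested. Klf1, the erythroid factor that acts at the same genes as GATA1, went from 4.34 and 9.06 FPKM in HE to 0.757 to 0.873 FPKM in pre-HSC and 107 and 66.6 FPKM in FL HSC. It was then at 5.71 and 11 FPKM in BM HSC, where Gata1 stayed above 20 FPKM. Klf1 fell by 2.01 between HE and pre-HSC (adjusted p = 0.00412, limma), rose by 5.55 between pre-HSC and FL HSC (adjusted p = 1.65e-06) and fell by 3.25 from FL HSC to BM HSC (adjusted p = 0.000655).

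Sfpi1 (PU.1), the myeloid factor that GATA1 is known to oppose, rose by 3.72 from HE to pre-HSC (adjusted p = 0.000143, limma), from 4.71 and 2.14 FPKM to 56.3, 35.1 and 83.3 FPKM, the step at which Gata1 fell. It did not change by the test between pre-HSC and FL HSC, where Gata1 rose (0.35, adjusted p = 0.41). The macrophage and granulocyte list, of which 15 of 19 tested genes rose in the first of these steps, summed to 12.7 and 17.0 FPKM in HE and to 327 to 1642 FPKM in pre-HSC, and the part of macrophage transcripts in the Sfpi1 level was not tested. Runx1, the factor that defines HE, rose from HE to pre-HSC by 1.75 and from pre-HSC to FL HSC by 1.58 (adjusted p = 0.000159 and 3.48e-05). Tal1, Lmo2 and Ldb1, chosen here after their values were seen because they form the complex that holds GATA factors at E-box and GATA sites, differed by 1.42, 1.49 and 0.17 between pre-HSC and FL HSC, with the first 2 called.

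Of 20 stem and progenitor genes placed near GATA2 in the blood network, 11 rose and 0 fell from HE to pre-HSC, and 12 rose and 2 fell from pre-HSC to FL HSC, with medians of 1.15 and 1.5 against 0.09 and 0.11 over all genes, of which 11.3% and 25% were called. Gfi1b, a repressor that acts with GATA factors in blood, was at 2.04 to 5.70 FPKM in pre-HSC and at 119 and 72.8 FPKM in FL HSC, a rise of 4.54 (adjusted p = 8.26e-05, limma). Myb, needed for definitive blood formation, rose at both steps, by 3.38 and 2.74 (adjusted p = 6.54e-05 and 1.79e-05). Hes1, a Notch target, went the other way and fell by 3.74 from pre-HSC to FL HSC (adjusted p = 2.7e-06).

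Erythroid genes that GATA1 is known to activate were counted next. From HE to pre-HSC 17 of 36 fell and 0 rose, from pre-HSC to FL HSC 25 rose and 4 fell, and from FL HSC to BM HSC 24 fell and 0 rose, with medians of -0.88, 1.97 and -1.90 against 0.09, 0.11 and 0 over all genes and with 11.3%, 25% and 10.1% of all genes called. Gata1 itself was called at the first 2 of these steps and not at the last. Ermap, a red cell membrane protein, was at 0.532 to 1.04 FPKM in pre-HSC, 67.1 and 70.5 FPKM in FL HSC and 3.44 and 6.69 FPKM in BM HSC. The embryonic globin genes Hbb-bh1 and Hba-x did not follow Gata1 in FL HSC, since they fell by 6.70 and 5.32 from pre-HSC to FL HSC (adjusted p = 1.23e-07 and 7.86e-06, limma).

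Of 21 megakaryocyte and platelet genes tested, 13 rose and 1 fell from HE to pre-HSC, and 9 rose and 4 fell from pre-HSC to FL HSC. From FL HSC to BM HSC 12 rose and 0 fell. The medians were 1.32, 0.56 and 1.23 against 0.09, 0.11 and 0 over all genes, of which 11.3%, 25% and 10.1% were called. The list was drawn up as genes driven by GATA1. Gata1 itself was called lower from HE to pre-HSC (-1.31) and higher from pre-HSC to FL HSC (4.81). From FL HSC to BM HSC Gata1 differed by -1.04, which was not called, while Gata2 rose. Pf4, a platelet chemokine, was at 579 and 558 FPKM in BM HSC against 114 and 35.5 FPKM in FL HSC, a rise of 3.13 (adjusted p = 0.0156, limma).

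Mast cell, basophil and eosinophil genes were mostly low. Of 18 with a row, 10 passed the filter, and 7 of these rose and 0 fell from pre-HSC to FL HSC, and 1 rose and 6 fell from FL HSC to BM HSC, with medians of 1.36 and -1.35 against 0.11 and 0 over all genes, of which 25% and 10.1% were called. Prg2, an eosinophil granule protein, was at 49.4 and 13.9 FPKM in FL HSC and at or under 0.2 FPKM in the other libraries, and Srgn, the granule proteoglycan found in many blood cells, made up most of the list's summed level of 840 and 971 FPKM in BM HSC.

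**Figure D4:**
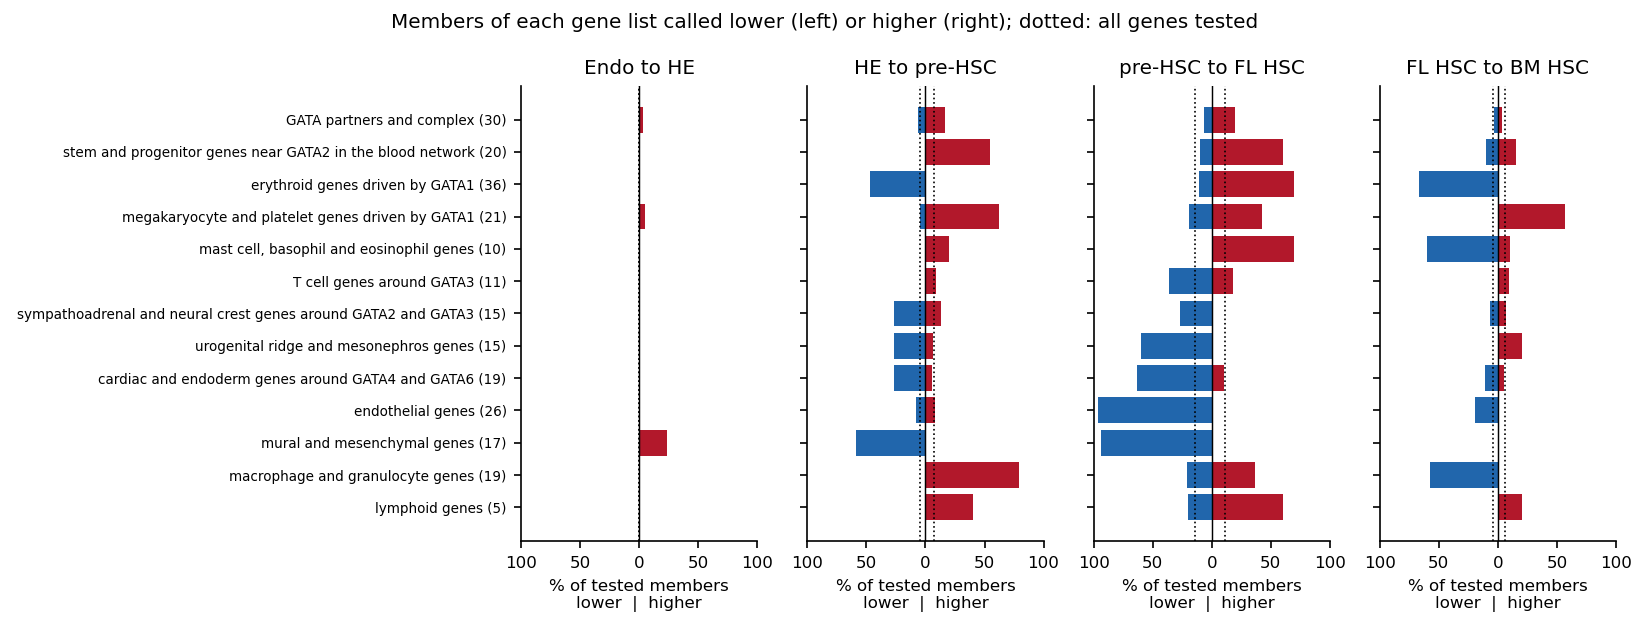
Share of the tested members of each gene list (number tested in brackets) that were called higher (right, red) or lower (left, blue) in each step, with the shares over all genes tested as dotted lines. Erythroid genes were called lower more often than higher from HE to pre-HSC and from FL HSC to BM HSC, and the reverse in between. Endothelial and mural genes were mostly lower from pre-HSC to FL HSC. Other lists moved as much: from HE to pre-HSC 10 of 17 mural genes fell and 15 of 19 macrophage and granulocyte genes rose. From FL HSC to BM HSC 11 of 19 macrophage and granulocyte genes fell and 12 of 21 megakaryocyte genes rose.

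For Gata4 and Gata6, the tissues in which these factors are known to act were examined in the same way. From pre-HSC to FL HSC 12 of 19 tested cardiac and endoderm genes fell and 2 rose, 9 of 15 urogenital genes fell, 25 of 26 endothelial genes fell and 16 of 17 mural and mesenchymal genes fell, against 25% of all genes called in either direction. The medians were -1.58, -1.57, -4.31 and -3.56 against 0.11 over all genes. Sox17 and Sox7, endothelial factors that are also endoderm factors, and the endothelial receptor Kdr each fell by more than 4 on the log2 scale, by 5.19, 4.87 and 6.25 (adjusted p = 7.54e-08, 2.29e-08 and 2.62e-08, limma). The endothelial list summed to 3717 to 5162 FPKM over the Endo, HE and pre-HSC libraries and to 550 to 658 FPKM in FL HSC and BM HSC, with 0 of its 26 genes at 0 in all FL HSC libraries and 2 in all BM HSC libraries.

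Within the artery populations, the sums of the mesenchymal and urogenital lists were as follows. Mural and mesenchymal genes summed to 276 and 596 FPKM in Endo, 1436 and 1559 FPKM in HE and 303 to 644 FPKM in pre-HSC, and urogenital genes to 81.6 and 212 FPKM, 291 and 481 FPKM and 96.5 to 126 FPKM. Outside the artery populations, the urogenital sum was 18.9 and 19.3 FPKM in FL HSC and 83.5 and 111 FPKM in BM HSC. In BM HSC 14 of its 21 genes were listed at 0, so a sum near that of pre-HSC does not by itself mark urogenital cells. The mesenchymal and urogenital sums were both higher in HE than in Endo and than in pre-HSC. Gata6 was higher in HE than in Endo with no overlap, and it overlapped between HE and pre-HSC. Gata4 overlapped in both comparisons. No difference of Gata4 or Gata6 in these 2 steps was called. Hand1, a mesodermal factor of the cardiac list, fell by 3.08 from HE to pre-HSC (adjusted p = 0.00311, limma). The part of mesenchymal or urogenital cells in the levels of Gata4 and Gata6 was not tested.

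For the lineages of GATA3, T cell genes and sympathoadrenal genes were counted. Of 20 T cell genes 11 passed the filter, and 2 rose and 4 fell from pre-HSC to FL HSC, against 25% of all genes called and with a median of -0.38 against 0.11, with Ets1 lower by 3.84 and Runx3 higher by 3.87 (adjusted p = 3.08e-07 and 1.25e-06, limma). Of 19 sympathoadrenal and neural crest genes with a row, 15 passed, and between HE and pre-HSC 2 rose and 4 fell, against 11.3% of all genes called and with a median of -0.81 against 0.09. Those that rose were Stmn2, a neuronal tubulin regulator at 64.8, 67.7 and 75.5 FPKM in pre-HSC, and Slc18a2, the vesicular monoamine transporter, which rose by 1.73 and 1.87 (adjusted p = 0.00151 and 0.000436). In FL HSC and BM HSC 10 and 14 of the 19 genes were listed at 0. The summed list was at 48.6 and 52.7 FPKM in Endo, 77.2 and 83.3 FPKM in HE, 107 to 110 FPKM in pre-HSC, 14.7 and 24.8 FPKM in FL HSC and 50.6 and 61.1 FPKM in BM HSC, where Slc18a2 alone was at 59.6 and 50.1 FPKM. In pre-HSC, Stmn2 alone made up 64.8 to 75.5 FPKM of the sum. The sum thus rose from HE to pre-HSC although the median change of the tested genes was -0.81. The part of such cells in the Gata3 level was not tested. The summed lymphoid list was at 28.4 to 45.1 FPKM in the artery libraries and 56.5 to 79.6 FPKM in the stem cell libraries.

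The genes whose pattern over the 11 libraries was most like that of each member were taken by Pearson r of log2(FPKM + 1), among tested genes that reached 10 FPKM in at least 1 population mean. For Gata1 these were Icam4, Anp32e, Parl, Prps1 and Anp32b (r = 0.982 to 0.989), of which Icam4 is an erythroid surface protein at 0.583 FPKM in pre-HSC and 30.6 FPKM in FL HSC in the mean. For Gata2 they were Rab37, Rgs18, Tuba8, Ccdc69 and Tapbpl (r = 0.992 to 0.995), and Rgs18, a regulator of G protein signalling in platelets, went from 2.38 FPKM in pre-HSC to 19.2 FPKM in FL HSC and 91.2 FPKM in BM HSC.

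For Gata4 the nearest patterns were Oit3, Aplp2, Notch1 and Sema6d (r = 0.953 to 0.981), and for Gata6 Adamts9, Fbn1, Synpo, Errfi1 and Jag1 (r = 0.990 to 0.996). Notch1 and Jag1 are a receptor and a ligand of Notch signalling. Gata3 had looser partners, with Wdr85 the closest at r = 0.918 and Abcf3 the fifth at r = 0.863. Among the members themselves r was 0.885 between Gata4 and Gata6, 0.751 between Gata1 and Gata2 and -0.938 between Gata1 and Gata6. All these values describe 11 libraries that fall into 5 populations and share their differences between stages.

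The genes beside the members on the chromosomes mostly did not move with them. Hdac6, 11371 bases from Gata1, was between 11 and 12.1 FPKM in all population means, and Glod5 on the other side was listed at 0 in every library. Rpn1 beside Gata2 had no called step, and Dnajb8, 15238 bases beyond Gata2, stayed under 0.1 FPKM in population means. Neil2 beside Gata4 and Mib1 and Rbbp8 beside Gata6 had no called step, and Blk, on the other side of Gata4, stayed under 0.01 FPKM in population means. Taf3 beside Gata3 had no called step, and the far neighbour Celf2, 2776357 bases away, was called higher both from HE to pre-HSC (2.13) and from pre-HSC to FL HSC (1.54). Gata5, the remaining GATA gene of the endoderm and heart group and named after its values were seen, was at 0.468 to 3.42 FPKM in the Endo, HE and pre-HSC libraries and listed at 0 in all FL HSC and BM HSC libraries, as Gata4 was in BM HSC.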

How the data were processed

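RNA of 11 sorted mouse libraries had been sequenced in paired-end mode by the authors, aligned to mm9 with TopHat, and deposited as a gene table in FPKM. Gene counts for the study's own edgeR tests came from featureCounts (Subread), while Cufflinks is listed among the tools in the submitters' processing notes; the tool and the gene filter behind the FPKM are not given in the sources used here, and whole reads could not be recovered. Symbols and positions came from GENCODE M1 (mm9), with 37038 of 37820 identifiers matched. The 5 genes, the gene lists and the tests were chosen with earlier results of these data known. List symbols without a row were left out, and some were matched by an older symbol from RefSeq. Genes at 1 FPKM or more in at least 2 libraries (14708) were fitted as log2(FPKM + 1) with limma 3.58.1 (R 4.3.3; trended empirical Bayes, population as factor, Benjamini-Hochberg adjustment over all genes), in place of the count model used by the study because counts were not at hand. Calls needed an F adjusted p under 0.01, a pairwise adjusted p under 0.05 and a 2-fold change. The pseudocount of 1 shrinks changes of genes near 0. The log2 Gata1 to Gata2 ratio and the log2 summed level (each plus 1) were tested by exact permutation of F. Genes were named by rule: the 5 members; the 5 genes of highest r to each; up to 4 genes per list with the largest called change and a population mean of at least 10 FPKM; nearest coding neighbours; and sort markers. Some genes that the rule names are not reported here. The fits were tested on simulated data. Replicate numbers are shared between populations, but correlations of deviations between libraries of the same number ran from -0.155 to 0.156, so numbers were not taken as pairs. Figures used matplotlib 3.10.9 in Python 3.11.15.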

Additional observations from a re-analysis of the deposited data

How the results depend on the processing

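With 20 alternatives (pseudocounts of 0.1 and 0.5, no filter, quantile normalization, equal totals, a pairwise adjusted p under 0.01, no F step, the replicate block, a fit of the populations compared without the F step, and each library left out), 380 of 398 values of a member's step kept their direction and side of the threshold, 6 gained a call, 5 lost one and 7 changed sign. The number of members called between Endo and HE was 0 in all. Few genes of any kind were called in that step, with 19 of 14708 in the main fit and 33 of 12628 in the fit of the populations compared. A count of 0 among 5 members is therefore near the share over all genes and does not show that they were unchanged. For the ratio and the sum only the pseudocounts, equal totals and the left-out libraries were run, and p stayed between 7.94e-05 and 0.00529. Between HE and pre-HSC the count was 2 with equal totals (Gata2 added, at 1.01) and 0 with an adjusted p under 0.01; with libraries left out it ran from 0 to 1, and it was 0 without HE replicate 2. Between FL HSC and BM HSC it was 2 with a pseudocount of 0.1 (Gata4 added, at -3.10, adjusted p = 0.0151, a gene listed at 0 in BM HSC) and 2 with quantile normalization (Gata1 added, at -1.01); with libraries left out it ran from 1 to 2, and Gata1 was added without Endo replicate 1 (adjusted p = 0.035), without Endo replicate 2 (0.0356) or without FL HSC replicate 2 (0.0409). Between pre-HSC and FL HSC it ran from 3 to 4 with libraries left out, where Gata4 was lost without FL HSC replicate 2 or either BM HSC library.

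Sign changes touched only differences that had not been called: Gata3 from FL HSC to BM HSC with equal totals (0.058) and over the libraries left out (-0.73 to 0.61), Gata4 from Endo to HE with quantile normalization (-0.058) and over the libraries left out (-0.49 to 0.72), Gata1 from Endo to HE (-0.16 to 0.72) and Gata6 from FL HSC to BM HSC (-0.13 to 0.10) over the libraries left out. The cause was not tested. Equal totals moved the median change of all genes from 0.09 to 0.22 between HE and pre-HSC and from 0.11 to -0.09 between pre-HSC and FL HSC. With the replicate block the members called were 0, 1, 4 and 1 over the 4 steps, as without it, and the block left 1538 calls over all genes between HE and pre-HSC against 1665. Where a population was left with 1 library, its spread was assumed to be like that of the others. Depth is not known, so a level listed at 0 has no limit of detection, and 2 libraries a population leave wide intervals for Gata3 and Gata4.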
